A study of Mus musculus with 9 samples.

Results

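The genes described here are 10 genes of the neuronal cytoskeleton and the growth cone, measured by RNA sequencing of the embryonic mouse midbrain. They are the tubulins *Tubb3*, *Tubb2b* and *Tuba1a*, the microtubule-binding genes *Dcx*, *Map1b* and *Map2*, the stathmins *Stmn1* and *Stmn2*, the growth cone gene *Gap43* and the neurofilament gene *Nefl*. They were chosen by name, and the rows of the normalized count table were found by matching Ensembl identifiers to these symbols in the annotation of GRCm38, which gave 10 of 51912 genes. Midbrains of C57Bl/6 embryos at E14.5 were compared between 3 genotypes, wild type (*Nkx2.9*+/+), heterozygous (*Nkx2.9*LacZ/+) and homozygous (*Nkx2.9*LacZ/LacZ). In the targeted allele a LacZ reporter replaces exon 1, so heterozygous embryos keep 1 intact copy of *Nkx2.9* and homozygous embryos have none. Each genotype had 3 libraries, each library held 2 pooled midbrains, and the labels name no treatment. Every cell of a homozygous embryo carries the allele, while *Nkx2.9* is transcribed in few of the cells of the dissected tissue.

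Neurons extend axons and dendrites by building microtubules from dimers of alpha and beta tubulin, and by steering a growth cone whose membrane and actin network respond to the surroundings. Newborn neurons switch on a shared set of these genes. *Tubb3*, *Tubb2b* and *Tuba1a* supply the tubulin, *Dcx*, *Map1b* and *Map2* bind and stabilize microtubules, and *Stmn1* and *Stmn2* bind free tubulin and favour microtubule disassembly. *Gap43* is a membrane phosphoprotein of growing axons, and *Nefl* encodes the light neurofilament subunit, which accumulates as axons mature. In this tissue most of the set is used to mark young neurons whatever their transmitter, and *Stmn1* is also made by dividing progenitors. The comparison asks whether the levels of these genes differed with the *Nkx2.9* genotype.

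The libraries are named by their column, since the columns carry a genotype and no replicate number. Columns 1 to 3 were labelled homozygous (LacZ/LacZ below), columns 4 to 6 heterozygous (LacZ/+) and columns 7 to 9 wild type (+/+). Between 1692963 and 5942192 reads per library fell on genes, and the 2 shallow libraries were column 4 with 2584074 and column 7 with 1692963. The targeted gene, *Nkx2-9* (ENSMUSG00000058669), had 4, 6 and 3 reads in columns 1 to 3, then 0, 7 and 4 in columns 4 to 6, then 0, 2 and 2 in columns 7 to 9. These 28 reads were not fewer where the labels place the loss of the gene. With 0 to 7 reads per library, counted over the whole gene although only part of it is replaced, they cannot test the labels. No other value used here shows which columns are homozygous. The sign of every difference below, those of the marker genes included, therefore rests on the column labels alone, and is not shown to be that of the mutant. The title of the data set names cortex, while the sample labels name midbrain. All 8 midbrain markers examined were present in every library, with *Gata3* from 453 to 565. Of these 8 markers, 5 were lower and 3 higher in value in the columns labelled LacZ/LacZ than in those labelled +/+, from -0.63 (*Pax7*) to 0.25 (*Th*) on the log2 scale. *Pax7* and *En1* (-0.60) had unadjusted p under 0.05, as 2.6% of all genes tested had, and neither passed adjustment (limma adjusted p = 1 for both, with unadjusted p of 0.0119 and 0.0277). The summed normalized count of the 8 was 1706 to 2025 in LacZ/LacZ, 1723 to 2370 in LacZ/+ and 2036 to 2287 in +/+, so LacZ/LacZ and +/+ did not overlap. Among the other marker lists, the genes with unadjusted p under 0.05 were *Olig1* of the oligodendrocyte lineage (-0.40) and *Neurod6* of cortical neurons (0.72) in LacZ/LacZ minus +/+, and the meningeal collagen gene *Col1a1* (-0.77) in LacZ/+ minus +/+ (limma adjusted p = 1 for each, with unadjusted p of 0.0453, 0.0481 and 0.00766). The 4 oligodendrocyte lineage genes were all lower in value in LacZ/LacZ than in +/+, from -0.47 to -0.04, with sums of 208 to 246 and 267 to 284. Of the 4 meningeal genes tested, 3 were lower in value in LacZ/+ than in +/+ and *Dcn*, with a mean normalized count of 6.83, was higher at 1.41, and the sums of the list were 173 to 198 and 212 to 319. The summed normalized count of 6 neuronal markers outside the 10 genes (*Rbfox3*, *Elavl3*, *Elavl4*, *Snap25*, *Syt1* and *Syp*) was 5620 to 5759 in the columns labelled LacZ/LacZ, 5792 to 6010 in those labelled LacZ/+ and 5733 to 6015 in those labelled +/+. The sums of the LacZ/LacZ and LacZ/+ columns did not overlap, and none of the 6 markers had an unadjusted limma p under 0.05 in any pair of genotypes. Over the 11 marker lists and 3 comparisons, the sums did not overlap in these 4 of 33 cases, beside 9.52%, 6.91% and 8.71% of single genes tested in LacZ/LacZ against +/+, LacZ/+ against +/+ and LacZ/LacZ against LacZ/+. The part of these marker differences in the results below was not tested. In RNA of whole tissue, fewer neurons and less RNA per neuron cannot be told apart.

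Tubulin genes are near copies of each other, so their sequences bear on what a read count can assign. Of all stretches of 100 bases in the protein-coding transcripts of *Tuba1a*, 65.8% were also found in transcripts of other genes, 13 genes in all, with 34.9% found in *Tuba1c*. For *Tubb2b* the share was 27.7%, of which 26.1% of all stretches were in *Tubb2a*. The coding sequence of *Tuba1a* differed from that of *Tuba1b* at 23 of 1356 bases, an identity of 98.3%, and the coding sequences of *Tubb2b* and *Tubb2a* differed at 47 of 1338 bases, an identity of 96.5%. The 30 coding bases in which each pair differed most are shown, since reads over such stretches tell the copies apart. They are read from GRCm38, all on the minus strand of the chromosome and written 5′ to 3′, with the differing bases in capitals. The first pair covers coding bases 670 to 699, with 10 differences, at chr15:98950691-98950720 for *Tuba1a* and chr15:98932239-98932268 for *Tuba1b*. The second pair covers coding bases 61 to 90, with 5 differences, at chr13:34129322-34129351 for *Tubb2b* and chr13:34076625-34076654 for *Tubb2a*.
Tuba1a: tacacTaacctAaacAgGTtGatAGgTcaA
Tuba1b: tacacCaacctTaacCgCCtTatTAgCcaG
Tubb2b: tgggaggtCatCagTgatgagcatggTatA
Tubb2a: tgggaggtGatAagCgatgagcatggCatC
Outside such stretches *Tuba1a* and *Tuba1b* shared up to 281 identical coding bases in a row, and *Tubb2b* and *Tubb2a* up to 551. How reads that fit several genes were counted is not given in the sources used here, so the counts of *Tuba1a* and *Tubb2b* are uncertain by what such reads contributed. None of the stretches in the protein-coding transcripts of *Tubb3*, *Dcx*, *Map1b*, *Map2*, *Stmn2* or *Gap43* was found in another gene (0%), although exons of *Map2* overlap an antisense gene in pieces each shorter than 100 bases, which such a stretch cannot detect. *Stmn1* shared 17.3% with *Gm11223*. *Nefl* shared 30.8% with *Nefm*, because the annotated exons of the 2 genes overlap on opposite strands over 1108 bases. The strand setting of the counting is not given in the sources used here either, so reads of *Nefl* and *Nefm* in the overlap cannot be told apart.

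The 10 genes were among the more abundant of the midbrain. By mean normalized count *Map1b* ranked 8, *Tuba1a* 12, *Map2* 19, *Tubb2b* 21, *Dcx* 32, *Tubb3* 35, *Stmn2* 68, *Stmn1* 80, *Gap43* 186 and *Nefl* 2035 among all genes. Together they held between 1.83% and 2.06% of the reads of a library. The count behind a value ranged from 165 reads for *Nefl* in column 7 to 33751 for *Map1b* in column 8, which puts the counting error (1 over the square root of the reads) between 0.544% and 7.78%. For each gene even the highest counting error was smaller than the coefficient of variation over the 9 libraries. The 2 came closest for *Nefl*, with 7.78% and 8.72%. This error covers counting only.

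None of the 10 genes differed between genotypes beyond the spread of the libraries. A normalized count is the number of reads on a gene divided by a size factor of the library, and the comparison used limma on log2(normalized count + 1) over the 9 libraries. Of the 10 genes, 0 had an unadjusted p under 0.05 in LacZ/LacZ against +/+, where 441 of the 16993 genes tested had one (2.6%). For LacZ/+ against +/+ it was 0 of 10, with 2.78% of all genes, and for LacZ/LacZ against LacZ/+ 0 of 10, with 2.64%. With shares this low among all genes, 0 of 10 is near the background. After Benjamini-Hochberg adjustment 0 of all genes tested passed in each of the 3 comparisons in limma (0%), beside 441, 473 and 449 at the unadjusted threshold. edgeR on the recovered reads gave 0 as well (421, 372 and 451 unadjusted), and DESeq2 gave 0, 1 and 0 (316, 264 and 323 unadjusted). Neither tool gave any of the 10 genes an unadjusted p under 0.05. An F test over all 3 genotypes gave 2.11% of all genes and 0 of the 10, whose p lay between 0.29 (*Tubb3*) and 0.964 (*Tuba1a*). The values of the labelled groups overlapped for all 10 genes in each comparison, where 9.52%, 6.91% and 8.71% of all genes tested did not overlap in the same order of comparisons. The exact two-sided permutation test of 3 libraries against 3, whose smallest p is 0.1, gave no p under 0.2 for any of the 10. A p of 0.1 in that test needs groups that do not overlap, so the overlap already fixed this outcome and it adds no evidence.

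The intervals limit how large a difference could have gone unseen. In LacZ/LacZ minus +/+ the log2 fold changes ranged from -0.10 (*Tubb3*) to 0.10 (*Dcx*) with a median of 0.02, beside a median of 0.01 over all genes tested, and 6 genes were higher and 4 lower in value. The 95% confidence intervals of the 10 genes lay within -0.38 and 0.50, that is, ratios between 0.771 and 1.42. In LacZ/+ minus +/+ the values ranged from -0.07 (*Map2*) to 0.08 (*Tubb3*), and the intervals covered ratios from 0.732 to 1.28. In LacZ/LacZ minus LacZ/+ they ranged from -0.19 (*Tubb3*) to 0.15 (*Dcx*), and the intervals covered ratios from 0.741 to 1.47. These 3 comparisons share libraries pairwise and are not independent of each other.

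**Figure D1:**
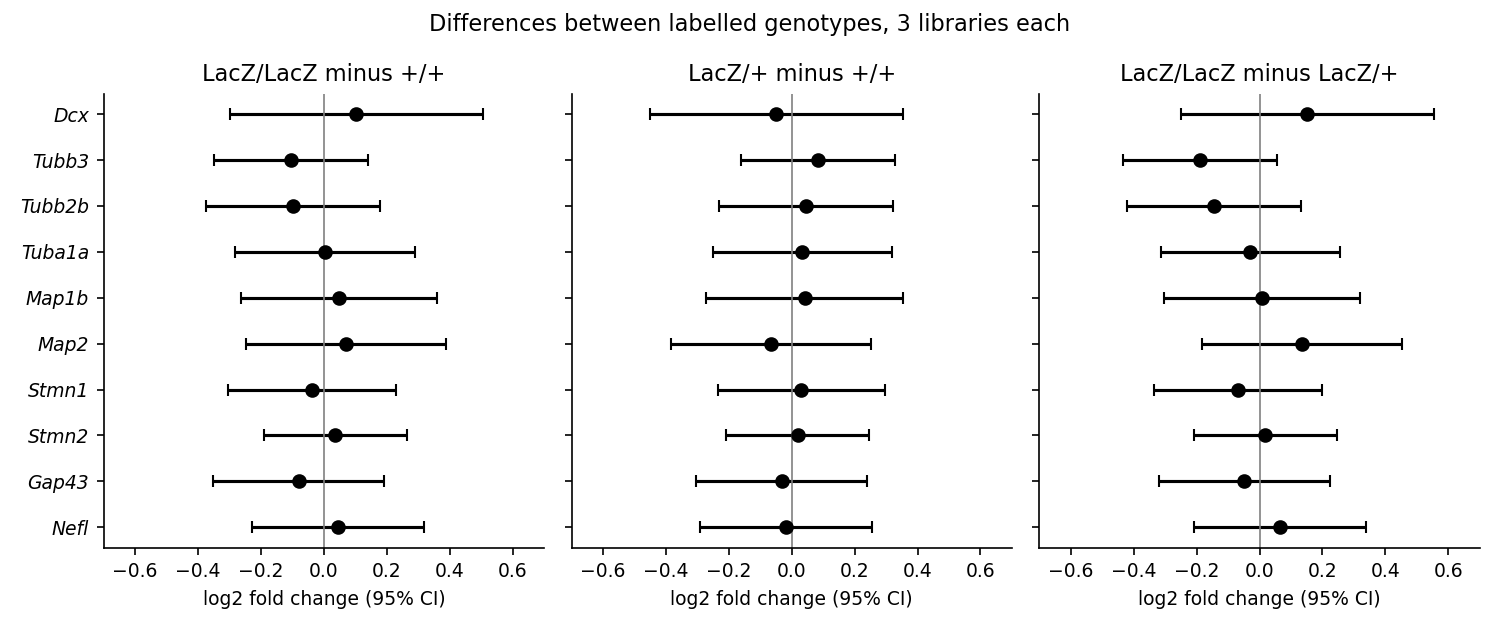
Log2 fold change (x axis) of each of the 10 genes (y axis) in 3 comparisons of labelled *Nkx2.9* genotypes, 3 libraries each, as points with 95% confidence intervals from limma. All intervals include 0, and the widest belong to *Dcx*, from -0.30 to 0.50 in LacZ/LacZ minus +/+.

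The beta tubulin gene *Tubb3* (ENSMUSG00000062380, chromosome 8, 123411424 to 123422015, plus strand), whose product is used to identify neurons, had normalized counts of 5585, 5443 and 5048 in the columns labelled LacZ/LacZ. It had 6811, 5449 and 6117 in those labelled LacZ/+ and 5948, 5575 and 5753 in those labelled +/+. Columns 3 and 2, labelled LacZ/LacZ, held the lowest values. The third LacZ/LacZ library, column 1, held the median of the 9 libraries. LacZ/LacZ overlapped with the other genotypes only through column 1, which exceeded column 5 and column 8. Group means were 5359 ± 278, 6125 ± 681 and 5759 ± 187 (SD, n = 3 each). The log2 fold change of LacZ/LacZ minus LacZ/+ was -0.19 ± 0.12 (SE), with an interval of -0.43 to 0.06 (limma p = 0.122, adjusted p = 0.999, and exact permutation p = 0.2). Without column 5 this difference was -0.27, with a limma p of 0.0461. No gene passed adjustment in that comparison, where the smallest adjusted p over all genes was 0.874.

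*Tubb2b* (ENSMUSG00000045136, chromosome 13, 34126748 to 34130466, minus strand) encodes a beta tubulin of migrating and differentiating neurons. Its normalized counts were 9753, 9110 and 8578 in the columns labelled LacZ/LacZ, 11253, 9177 and 9959 in those labelled LacZ/+ and 11400, 9023 and 9094 in those labelled +/+. The highest 2 values were those of columns 7 and 4, the libraries with the fewest reads, and the other 7 lay between 8578 and 9959. Group means were 9147 ± 589, 10130 ± 1048 and 9839 ± 1352 (SD, n = 3 each), and the log2 fold change of LacZ/LacZ minus +/+ was -0.10, with an interval of -0.38 to 0.18. Without the 2 shallow libraries it was 0.01.

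*Tuba1a* (ENSMUSG00000072235, chromosome 15, 98949837 to 98953703, minus strand) encodes the main alpha tubulin of developing neurons. It had 19831, 19262 and 17322 normalized counts in the columns labelled LacZ/LacZ, 21476, 17277 and 18965 in those labelled LacZ/+ and 20984, 18371 and 17029 in those labelled +/+. The groups overlapped almost entirely, and columns 4 and 7 were again the highest. The log2 fold change of LacZ/LacZ minus +/+ was 0.0038, with an interval of -0.28 to 0.29. An annotated gene, *Gm49450*, shares 473 exon bases with *Tuba1a* on the same strand and was not analysed here.

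The doublecortin gene *Dcx* (ENSMUSG00000031285, chromosome X, 143855842 to 143933311, minus strand), which marks migrating young neurons, varied most. It had 6202, 6120 and 6730 normalized counts in the columns labelled LacZ/LacZ, 3779, 6952 and 7091 in those labelled LacZ/+ and 5216, 6323 and 6248 in those labelled +/+. Column 4 stood alone at the bottom and column 7 came next, while the other 7 libraries lay between 6120 and 7091. The largest value was 1.88 times the smallest, and the coefficient of variation over the 9 libraries was 16.8%, against a counting error of at most 2.23%. Differences on the log2 scale were 0.10 ± 0.19 (SE) for LacZ/LacZ minus +/+ and -0.05 ± 0.19 for LacZ/+ minus +/+ (exact permutation p = 0.6 and 1). The latter sign turned without column 4. Then the difference was 0.25, with a limma p of 0.0289 (the smallest adjusted p over all genes in that comparison was 0.844), and without both shallow libraries it was 0.16, with a limma p of 0.110.

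*Map1b* (ENSMUSG00000052727, chromosome 13, 99421446 to 99516540, minus strand), which binds microtubules of growing axons, had the highest mean normalized count of the 10 genes. Its normalized counts were 21528, 25301 and 24262 in the columns labelled LacZ/LacZ, 20101, 27322 and 23718 in those labelled LacZ/+ and 25233, 23684 and 20008 in those labelled +/+. The lowest value was in the +/+ column 9 and the next lowest in column 4, and all 3 LacZ/LacZ values lay inside the range of LacZ/+. The log2 fold change of LacZ/LacZ minus +/+ was 0.05, with an interval of -0.26 to 0.36.

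*Map2* (ENSMUSG00000015222, chromosome 1, 66175273 to 66442583, plus strand), whose product is sorted into dendrites, had 9974, 10739 and 10735 normalized counts in the columns labelled LacZ/LacZ. Those labelled LacZ/+ had 7418, 10889 and 10763, and those labelled +/+ had 8927, 11161 and 9992. As with *Dcx*, columns 4 and 7 were the lowest, and the other 7 libraries lay between 9974 and 11161. On the log2 scale the difference was 0.07 for LacZ/LacZ minus +/+, with an interval of -0.25 to 0.39. It was 0.13 for LacZ/LacZ minus LacZ/+ and -0.05 there without the 2 shallow libraries. An annotated antisense gene, *Gm10558*, overlaps exons of *Map2* over 124 bases.

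The stathmins differed in how steady they were. *Stmn2* (ENSMUSG00000027500, chromosome 3, 8509360 to 8561606, plus strand), a neuron-specific stathmin of growth cones, had 3739, 3754 and 3586 normalized counts in the columns labelled LacZ/LacZ, 3331, 3754 and 3876 in those labelled LacZ/+ and 3442, 3642 and 3718 in those labelled +/+. Columns 4 and 7 held its lowest 2 values, as for *Dcx* and *Map2*. Its coefficient of variation over the 9 libraries, 4.69%, was the lowest of the 10 genes, and its residual SD on the log2 scale, 0.077, was lower than that of all but 1.4% of the genes tested. *Stmn1* (ENSMUSG00000028832, chromosome 4, 134468320 to 134473843, plus strand), the stathmin shared by neurons and progenitors, had 3729, 3185 and 2826, then 3616, 3184 and 3361, then 3584, 2966 and 3417 in the same order of genotypes. The highest and the lowest value of *Stmn1* were both in columns labelled LacZ/LacZ, and its coefficient of variation was 9.18%. Differences of LacZ/LacZ minus +/+ were 0.04 for *Stmn2*, with an interval of -0.19 to 0.26, and -0.04 for *Stmn1*, with an interval of -0.30 to 0.23.

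*Gap43* (ENSMUSG00000047261, chromosome 16, 42248442 to 42340651, minus strand) had 2391, 2015 and 1903 normalized counts in the columns labelled LacZ/LacZ, 2366, 2041 and 2102 in those labelled LacZ/+ and 2472, 1907 and 2296 in those labelled +/+. The highest library of each genotype was the first of its columns, 1, 4 and 7, and the groups overlapped over nearly their whole range. LacZ/LacZ minus +/+ gave a log2 fold change of -0.08, with an interval of -0.35 to 0.19.

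*Nefl* (ENSMUSG00000022055, chromosome 14, 68083863 to 68089095, plus strand) had the lowest counts of the 10 genes, with 556, 484 and 464 in the columns labelled LacZ/LacZ, 494, 452 and 490 in those labelled LacZ/+ and 427, 552 and 482 in those labelled +/+. The LacZ/+ values fell inside the range of +/+, and the lowest of all, in column 7, rested on 165 reads. LacZ/LacZ minus +/+ gave a log2 fold change of 0.05, with an interval of -0.23 to 0.32. *Nefm*, the medium neurofilament gene that overlaps it, had 117 to 222 normalized counts.

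**Figure D2:**
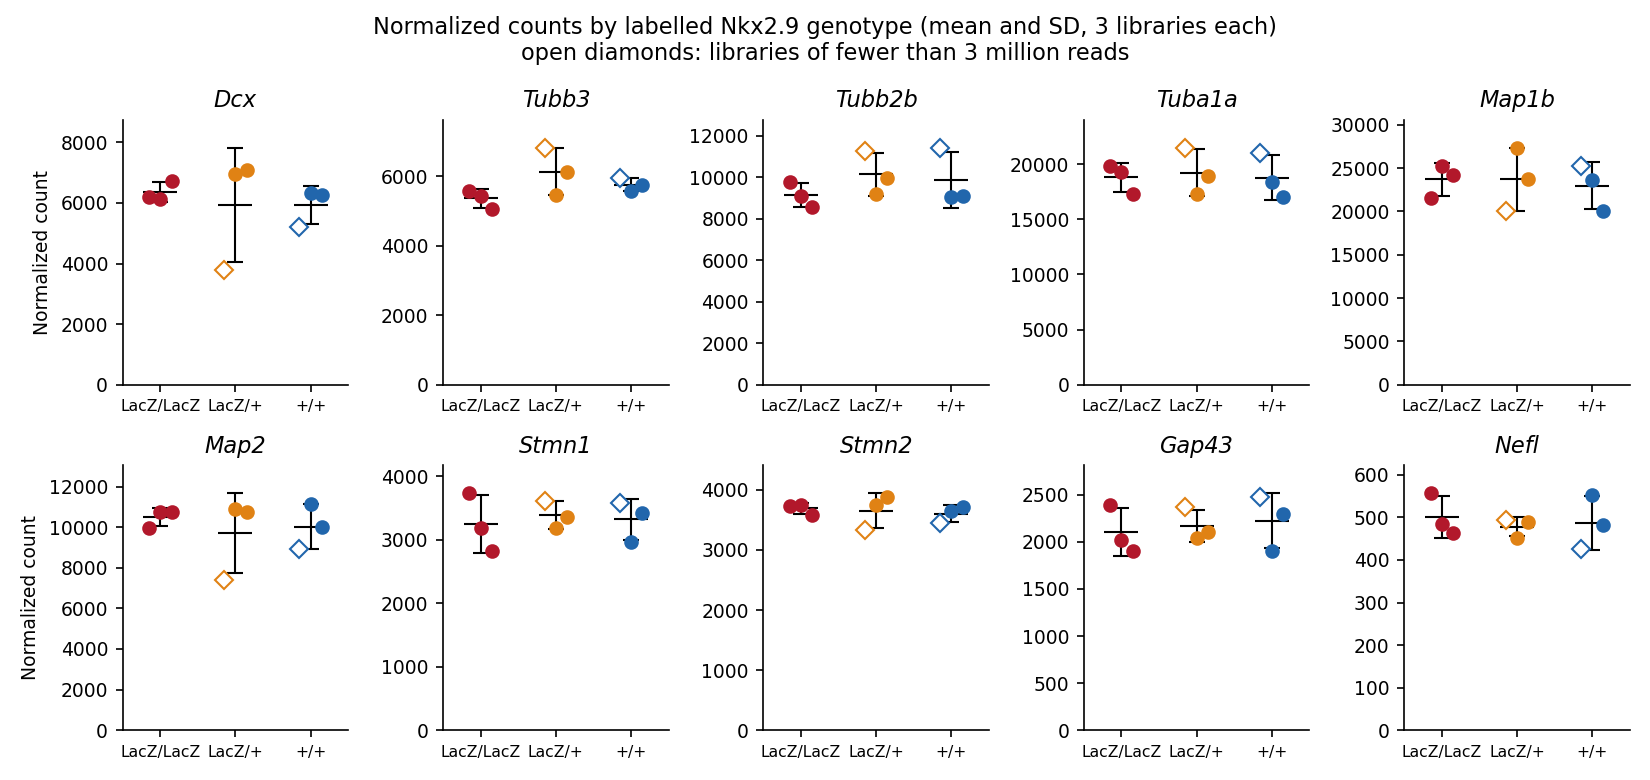
Normalized count (y axis, from 0) of the 10 genes in the 9 libraries by labelled *Nkx2.9* genotype (x axis), with the mean and SD of 3 libraries. Open diamonds are columns 4 and 7, the shallow libraries. Groups overlap in every panel, and the open diamonds are the lowest 2 values for *Dcx*, *Map2* and *Stmn2* and the highest 2 for *Tubb2b* and *Tuba1a*.

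Divided by the length of the annotated exons, the tubulins led. *Tuba1a* had a median of 10519 normalized counts per kilobase of exon over the 9 libraries (9445 to 11911), followed by *Tubb2b* with 4001 (3739 to 4969) and *Tubb3* with 2990 (2702 to 3646). None of these ranges overlapped with the next, and each gene exceeded the next in 9 of 9 libraries. *Stmn1* (1749), *Map1b* (1497) and *Gap43* (1380) formed a middle group of medians per kilobase. *Stmn1* exceeded *Map1b* in 7 of 9 libraries and *Map1b* exceeded *Gap43* in 5 of 9, so these neighbours did not differ beyond their spread. *Stmn2* (664) and *Map2* (653) overlapped as well, with *Stmn2* higher in 7 of 9, and *Dcx* (494) was below *Map2* in 9 of 9 libraries although their ranges overlapped. *Nefl* was last, at 143 (126 to 165).

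The order within the middle depended on which length was used. With the longest coding transcript in place of all annotated exons, an alternative chosen after seeing the data, *Stmn1* had a median of 3171 per kilobase and came above *Tubb3* (2990), and *Map2* (1715) and *Stmn2* (1794) came above *Gap43* (1480). *Tuba1a* and *Tubb2b* stayed in the first 2 places and *Dcx* and *Nefl* in the last 2. *Map2* has 16449 annotated exon bases against 6258 in its longest coding transcript, the largest gap in bases among the 10.

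**Figure D3:**
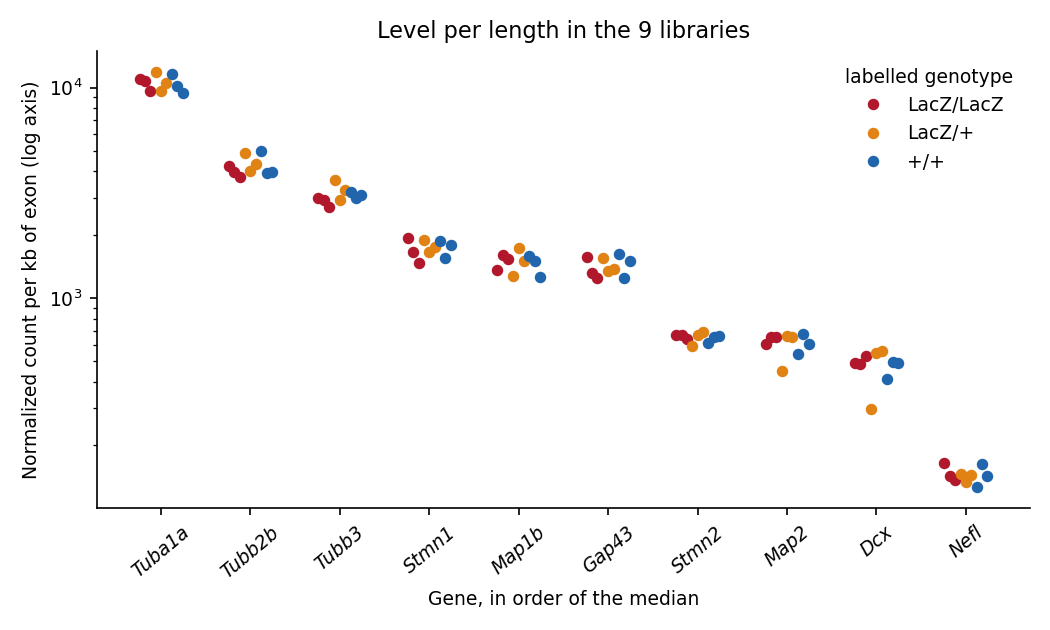
Normalized count per kilobase of annotated exon (log axis) for the 10 genes in order of their median; each point is 1 of 9 libraries, coloured by labelled *Nkx2.9* genotype. *Tuba1a* lies at 9445 to 11911 and *Nefl* at 126 to 165, and the ranges of the 3 colours overlap within every gene.

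The tubulins were also set beside their copies. Per kilobase of exon, *Tuba1a* was 15.6 to 18.7 times *Tuba1b* and *Tubb2b* was 2.33 to 2.65 times *Tubb2a*, within the uncertainty of shared reads. *Tubb5*, a beta tubulin that progenitors and neurons both express, had a median of 3111 per kilobase (2811 to 3697), and its range overlapped that of *Tubb3* and lay below that of *Tubb2b* (3739 to 4969). *Tuba1c* had a median of 105. The *Tuba1a* to *Tuba1b* ratio varied by 1.19 times over the 9 libraries and the *Tubb2b* to *Tubb2a* ratio by 1.13 times, so the copies kept close proportions in each library.
Among stathmins, the ratio of *Stmn2* to *Stmn1* per kilobase ran from 0.316 to 0.435, and *Stmn3* (956) and *Stmn4* (467) lay around *Stmn2* in median level per kilobase. Among neuronal intermediate filaments, *Ina*, which encodes alpha-internexin and precedes the neurofilament subunits in development, had a median of 769 per kilobase and exceeded *Nefl* in every library, by up to 6.16 times. *Nefl* in turn was 3.28 to 8.10 times *Nefm*, whose median was 26.6 per kilobase.

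The genes did not all vary together across the libraries. On the log2 scale, each gene was centred on its own mean, and likeness was measured as the root mean square difference between 2 genes over the 9 libraries. The closest pairs were *Stmn1* with *Gap43* (0.044) and *Tubb2b* with *Tuba1a* (0.066), and the most distant was *Dcx* with *Tubb2b* (0.377). The 5 genes with the least exon length (*Tubb3*, *Tubb2b*, *Tuba1a*, *Stmn1* and *Gap43*) moved together in some libraries. They lay at -0.23 to -0.12 in column 3 and at 0.13 to 0.25 in column 4. The 3 genes with the most (*Dcx*, *Map1b* and *Map2*) lay at 0.06 to 0.17 and at -0.66 to -0.22 there. In columns 1, 2, 6 and 9 the 5 genes had both signs. The ratio of *Tubb2b* to *Dcx* per kilobase was 16.4 in column 4 and 12.0 in column 7, and 7.03 to 8.67 in the other 7 libraries. Column 4 is where the 10 genes parted most. There *Dcx* was 0.66 below its own mean, *Map2* 0.43 below and *Map1b* 0.22 below, while *Tubb3* was at 0.25, *Tubb2b* at 0.22 and *Tuba1a* at 0.19 above theirs.

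Over all genes, the deviations in columns 4 and 7 rose with the GC content of the transcripts and fell with exon length. Among 7298 abundant protein-coding genes (mean normalized count of 100 or more), the median deviation in column 4 rose from -0.50 in the 790 genes with a GC content under 42% to 0.27 in the 1984 genes with 54% or more. In column 7 it rose from -0.19 to 0.11, and in column 5 it fell from 0.16 to -0.10. The rise in column 4 was as large among genes with exons of 8 kb or more (-0.52 to 0.26) as among those under 4 kb (-0.44 to 0.29). By exon length alone, the median deviation went from 0.22 under 2 kb to -0.15 at 8 kb or more in column 4, and from 0.18 to -0.04 in column 7. The GC content of the longest coding transcript was 40.6% for *Dcx*, the lowest of the 10 genes, 47.6% for *Map1b* and 47.8% for *Map2*. It was 53.2% for *Tuba1a* and 57.9% for *Tubb3*, the highest.
With a smooth curve of deviation against GC content removed from each library, an alternative chosen after seeing the data, the range of *Dcx* over the 9 libraries shrank from 0.91 to 0.30 on the log2 scale. In column 4 *Dcx* moved from -0.66 to -0.20, *Tubb3* from 0.25 to -0.04 and *Map2* from -0.43 to -0.32, while *Tubb2b* was still at 0.17 and *Gap43* at 0.15. In column 7 the 10 genes lay between -0.20 and 0.24 before this step and between -0.19 and 0.20 after it. The range became smaller for 9 of the 10 genes, and its median over the 10 went from 0.41 to 0.35. None of the 10 genes had an unadjusted p under 0.05 in any comparison after this step, and *Dcx* differed by 0.05 and 0.02 from +/+ in LacZ/LacZ and LacZ/+. Columns 4 and 7 also had the highest summed normalized counts of 7 blood markers (globins and *Alas2*, all 7 above the minimum count), 2246 and 2149 against 1478 to 1876 in the other 7 libraries. Column 4 had the highest sum of the 8 midbrain markers as well, 2370. Of these markers 5 were above their own means there and 3 below, from -0.41 (*Otx2*) to 1.25 (*Th*) on the log2 scale, with *En1* at 0.84, and the neuronal marker *Rbfox3* was at 0.74. The sums of 5 proliferation markers (*Mki67*, *Top2a*, *Ccnb1*, *Cdk1* and *Pcna*) were lowest in columns 4 and 7, at 336 and 354 against 428 to 545 in the other 7 libraries. The part of blood, proliferation, midbrain markers, depth or library preparation in these deviations was not tested.

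**Figure D4:**
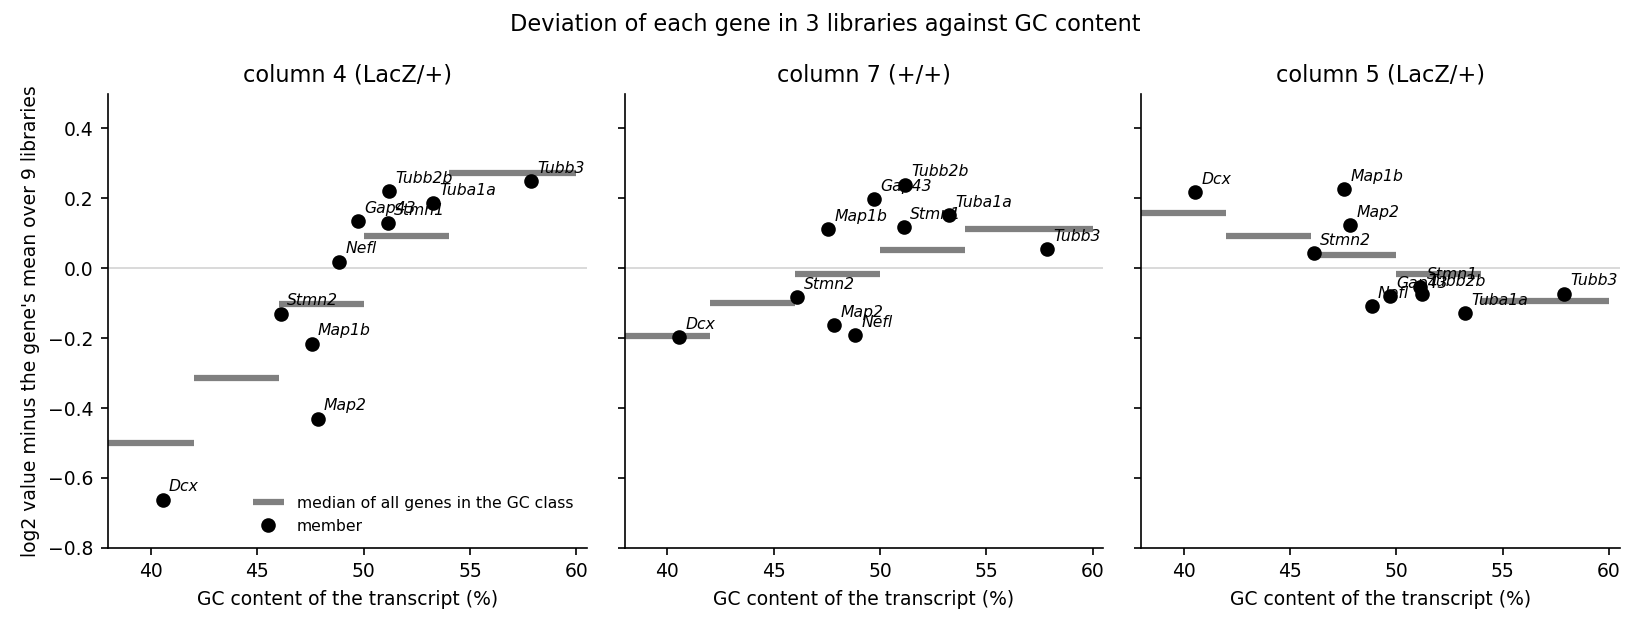
Log2 value minus the mean of the gene over the 9 libraries (y axis) against the GC content of the longest coding transcript (x axis, %) in column 4, column 7 and, for comparison, column 5; points are the 10 genes and grey bars the medians of all genes in 5 GC classes. In column 4 the grey bars rise from -0.50 to 0.27 and the 10 genes rise with them, from *Dcx* at -0.66 to *Tubb3* at 0.25.

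The spread of the 10 genes was ordinary for their abundance. The residual SD within genotypes, on the log2 scale, ran from 0.077 (*Stmn2*) to 0.314 (*Dcx*) with a median of 0.151, beside a median of 0.152 over the 2557 genes whose mean normalized count reached 400 and 0.289 over all genes tested. For 6 of the 10 genes it was below the median of the abundant genes. These reference genes were not matched to each of the 10 in abundance. The residual SD of *Dcx* was higher than that of 54.6% of all genes tested.

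Other genes of the cytoskeleton were examined by list. Of 72 genes in 7 lists (other tubulins, microtubule-associated genes, other stathmins, other intermediate filaments, growth cone membrane genes, actin regulators and motors), 71 passed the minimum mean normalized count of 5, and *Tuba8*, an alpha tubulin, did not, with a mean of 0.667. With all 9 libraries, none of the 71 had an unadjusted limma p under 0.05 in any of the 3 comparisons, beside 2.6%, 2.78% and 2.64% of all genes. In LacZ/LacZ minus +/+ their median log2 fold change was -0.04, beside 0.01 over all genes tested, with 25 genes higher and 46 lower in value. In LacZ/+ minus +/+ the median was 0.04, with 46 higher and 25 lower, and in LacZ/LacZ minus LacZ/+ it was -0.06, with 22 higher and 49 lower. The 3 comparisons share libraries, so these splits are not independent.

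By list, the median in LacZ/LacZ minus +/+ ran from -0.23 for 4 intermediate filament genes to 0.03 for 10 motor genes. The former median lay between *Nefm* (-0.20, mean normalized count 159) and *Nefh*, the heavy neurofilament gene (-0.26, mean 48.1). The smallest p of each comparison, named after the values were seen, belonged to *Fscn1*, *Dpysl3* and *Tmsb10*. *Fscn1* encodes fascin, which bundles actin in filopodia, and had a log2 fold change of -0.24 in LacZ/LacZ minus +/+ (limma adjusted p = 1, with an unadjusted p of 0.0695). The study named *Fscn1* from these libraries, so its value is no independent evidence, and its sign, which rests on the column labels alone, is not to be read as a direction in the mutant. *Dpysl3*, a collapsin response mediator of the growth cone, had 0.34 in LacZ/+ minus +/+ (limma adjusted p = 1, with an unadjusted p of 0.0656), and *Tmsb10*, which binds actin monomers, had -0.27 in LacZ/LacZ minus LacZ/+ (limma adjusted p = 0.999, with an unadjusted p of 0.0914). Without the 2 shallow libraries *Dpysl3* was higher by 0.62 in LacZ/+ and by 0.44 in LacZ/LacZ than in +/+ (limma adjusted p = 0.131 and 0.403, with unadjusted p of 3.14e-05 and 0.00045). In that setting *Marcks*, *Pfn1* and *Dclk1* also had unadjusted limma p under 0.05 in both comparisons with +/+. So did *Marcksl1* in LacZ/LacZ minus +/+, and *Prph* in LacZ/+ minus +/+ and in LacZ/LacZ minus LacZ/+. None of these genes passed adjustment. The LacZ/+ difference of *Dpysl3* was 0.55 without column 7 and 0.12 without column 9, so it depended on which +/+ libraries were kept.

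**Figure D5:**
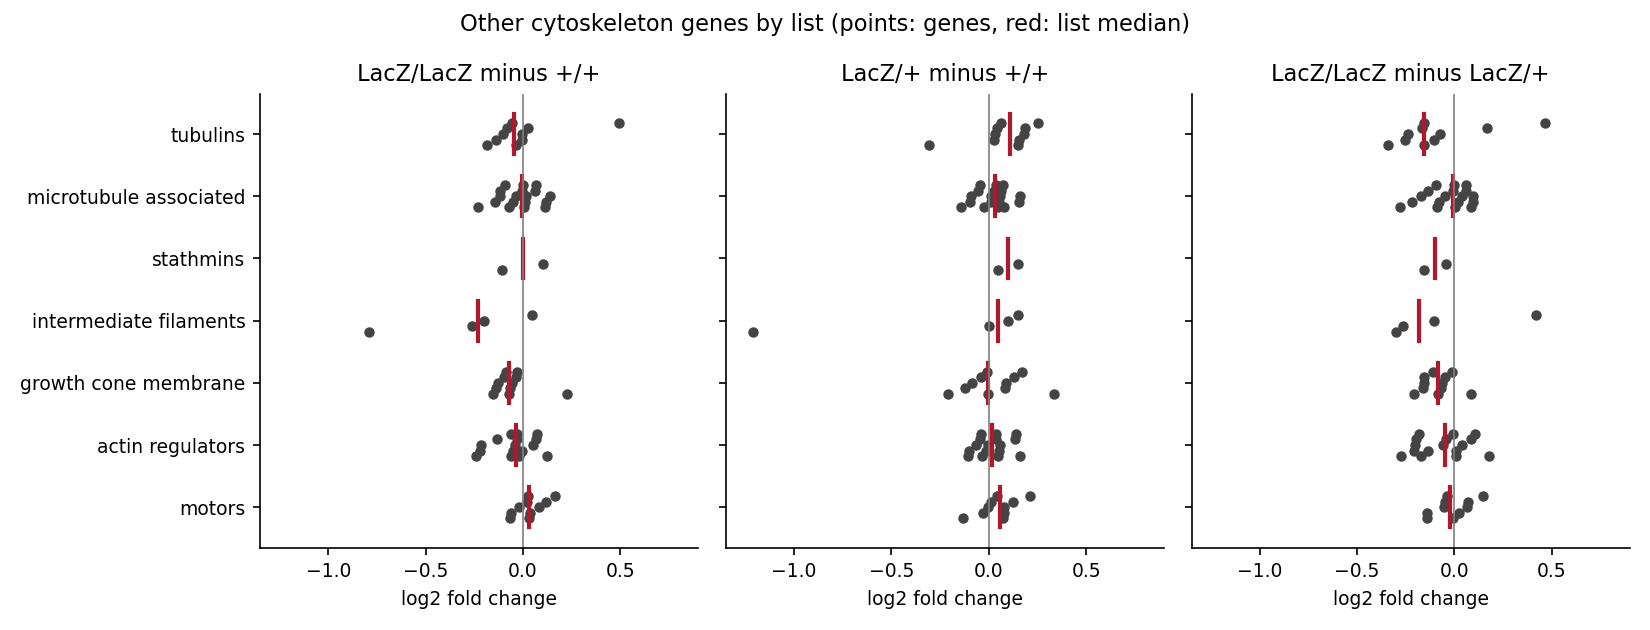
Log2 fold change (x axis) of the 71 other cytoskeleton genes by list (y axis) in 3 comparisons of labelled *Nkx2.9* genotypes; points are genes and red lines list medians. List medians lie between -0.23 and 0.11, and the points farthest from 0 belong to *Prph*, the peripherin gene, and *Tuba4a*, an alpha tubulin, with mean normalized counts of 13.8 and 9.70.

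The mean centred profile of the 10 genes was almost flat, from -0.07 in column 3 to 0.06 in column 6. Among 7490 genes whose mean normalized count reached 100, the 5 other genes closest to it were *Tdg* (root mean square difference 0.036), *Alg2* (0.038), *Wrb* (0.040), *Ap2a2* (0.041) and *Rab7* (0.041), over 9 libraries. The median over all compared genes was 0.172, and the 10 genes themselves lay between 0.054 and 0.252 from their own mean. The closest genes are thus genes that varied little between libraries, with *Tdg* ranging from 300 to 333 normalized counts. The flat mean of the 10 genes hides deviations of opposite sign. In column 4 the 5 genes with the least exon length averaged 0.18 and the 3 with the most -0.44.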

How the data were processed

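RNA of dissected E14.5 midbrains was sequenced in 9 libraries. Per the study's methods, RNA was depleted of ribosomal RNA before library preparation, and the authors pooled 2 midbrains per library and aligned paired reads with HISAT2 to GRCm38 (mm10), with counting by featureCounts and normalization by DESeq2. The sample labels name another isolation and an mRNA protocol. Versions, annotation release and filters are not given in the sources used here. The deposited signal is a normalized count, that is, the authors' read count over the size factor of its library. The authors also deposited 3 tables of their own DESeq2 comparisons (log2 fold changes, test scores and p-values), which were not used.

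Symbols and positions came from GENCODE annotation of GRCm38, which matched 51719 of 51912 identifiers. Columns were grouped by the genotype in their names. Whole reads were recovered for 100% of the 210686 values above 0 (tolerance 0.01 reads). The 16993 genes whose mean normalized count reached 5 were compared with limma 3.58.1 (lmFit and eBayes with trend, R 4.3.3) on log2(normalized count + 1), 9 libraries in one fit, two-sided, Benjamini-Hochberg over all genes tested. The script was tested on simulated reads. On this scale the change of low genes is understated. That libraries of a genotype came from different embryos follows from the pooling stated in the methods. Named genes are the 10 members, genes of the other cytoskeleton lists with p under 0.05 (none), the nearest copies, and the 5 genes closest to the mean profile. Other list genes were named after their values were seen. The members and lists were chosen with earlier results of these data known.

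Alternatives were pseudocounts of 0.5 and 5, no minimum or a minimum of 20, only the 6 libraries compared, upper-quartile scaling, edgeR 4.0.16 (TMM) and DESeq2 1.42.0 on recovered reads, leaving out each library in turn or the 2 shallow ones (columns 4 and 7), and 2 added after seeing the data, removal of GC content per library (lowess, span 0.3) and transcript length. Confidence intervals are at 95%. Reads per library ranged from 1692963 to 5942192, which with 3 libraries per genotype limits the precision. Figures were drawn with matplotlib 3.10.9. Of the marker lists examined, summed counts are given for the neuronal, midbrain and blood lists, single genes of the others mainly where their unadjusted p was under 0.05, and remaining markers are not reported here.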

Additional observations from a re-analysis of the deposited data

How the results depend on the processing

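No paired analysis was possible because the columns carry no replicate number. Of 570 values of the 10 genes under alternatives, 503 kept their direction, 45 turned when 1 library was left out and 22 turned otherwise, all between -0.27 and 0.31. Those under an unadjusted p of 0.05 were 2, *Dcx* without column 4 and *Tubb3* without column 5. The cause of the turned values was not tested.

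Without the 2 shallow libraries the log2 fold change turned to 0.012 for *Tubb2b*, -0.011 for *Map2*, 0.019 for *Stmn1*, 0.00021 for *Gap43* and -0.046 for *Nefl* in LacZ/LacZ minus +/+, to 0.16 for *Dcx* and 0.036 for *Map2* in LacZ/+ minus +/+, and to -0.15 for *Dcx*, 0.053 for *Tuba1a*, -0.11 for *Map1b*, -0.047 for *Map2*, -0.047 for *Stmn2* and 0.015 for *Gap43* in LacZ/LacZ minus LacZ/+. With GC content removed it turned to -0.0092 for *Stmn2*, 0.018 for *Dcx*, and 0.029 for *Tuba1a*, -0.027 for *Map1b* and -0.040 for *Stmn2*, in the same order of comparisons. DESeq2 gave -0.0014 for *Tuba1a*, 0.0016 for *Dcx* and -0.0024 for *Map1b* in that order, and edgeR 0.0022 for *Dcx* in the second. With 1 library left out, genes whose sign turned had, in LacZ/LacZ minus +/+, values from -0.16 to 0.012 for *Tubb2b*, -0.065 to 0.086 for *Tuba1a*, -0.048 to 0.12 for *Map1b*, -0.011 to 0.15 for *Map2*, -0.14 to 0.057 for *Stmn1*, -0.19 to 0.00021 for *Gap43* and -0.046 to 0.14 for *Nefl*. In LacZ/+ minus +/+ they ran from -0.20 to 0.25 for *Dcx*, -0.033 to 0.16 for *Tubb2b*, -0.049 to 0.12 for *Tuba1a*, -0.067 to 0.15 for *Map1b*, -0.16 to 0.12 for *Map2*, -0.049 to 0.088 for *Stmn1*, -0.025 to 0.084 for *Stmn2*, -0.14 to 0.049 for *Gap43* and -0.11 to 0.075 for *Nefl*. In LacZ/LacZ minus LacZ/+ they ran from -0.15 to 0.31 for *Dcx*, -0.10 to 0.053 for *Tuba1a*, -0.11 to 0.11 for *Map1b*, -0.047 to 0.23 for *Map2*, -0.17 to 0.027 for *Stmn1*, -0.047 to 0.062 for *Stmn2*, -0.14 to 0.020 for *Gap43* and -0.013 to 0.12 for *Nefl*.

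In the order LacZ/LacZ minus +/+, LacZ/+ minus +/+ and LacZ/LacZ minus LacZ/+, genes with an unadjusted p under 0.05 numbered 1135, 1137 and 1132 with no minimum, 263, 242 and 288 with a minimum of 20, and 703, 852 and 971 without the shallow libraries. For the second comparison there were 280 with only the 6 libraries and 264 in DESeq2. Leaving out 1 library gave 283 to 827, 375 to 933 and 293 to 740. After adjustment 6 genes passed in the first comparison without the shallow libraries and 1 in the second in DESeq2, and 0 to 0 with 1 library left out. Of the 10 genes, 0 to 0, 0 to 1 and 0 to 1 had an unadjusted p under 0.05 with 1 library left out. Of the other cytoskeleton genes 0 to 1, 0 to 3 and 0 to 2 did. Without the shallow libraries 5, 5 and 1 of these 71 genes did, beside 703, 852 and 971 of the 16993 genes tested. None of these list genes passed adjustment there. In other settings there was 1 in the first comparison with no minimum (*Tuba8*) or only 6 libraries (*Fscn1*). There were 2 in the second with GC content removed (*Dpysl3* and *Kif3b*).

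Depth limited *Nefl* most, with 165 reads in column 7. With 3 libraries per genotype, the half-width of the intervals ran from 0.23 to 0.40 on the log2 scale, and smaller differences of the 10 genes could not be told from the spread between libraries.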
